A study of Mus musculus with 9 samples.

Results

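MHC class I molecules show peptides from a cell's own proteins at its surface, and 10 genes of the pathway that makes and loads them were followed in sorted microglia: B2m, H2-D1, H2-K1, Tap1, Tap2, Tapbp, Psmb8, Psmb9, Nlrc5 and Erap1. The genes were taken by name, and each was read from the probe set with the highest mean among those annotated to that gene alone. Of the 10 genes, 8 had such a probe set and all 8 passed the filter on low values, out of 10795 genes tested in all. H2-D1 and H2-K1, the classical heavy chains, occurred only on probe sets annotated to both of them and to LOC547349, so no value could be assigned to either gene and their shared probe sets are described apart.

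Peptides for class I molecules are cut in the cytosol by the proteasome, whose catalytic subunits are exchanged for Psmb8, Psmb9 and Psmb10 under interferon. The transporter formed by Tap1 and Tap2 carries them into the endoplasmic reticulum, where Erap1 trims them and Tapbp (tapasin) holds the transporter against a heavy chain paired with B2m until a peptide fits. Nlrc5 is a transactivator that acts at class I promoters. Interferons are known to induce most of these genes, in microglia as in other cells.

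The mice had the 5XFAD transgenes, a model of the amyloid deposition of Alzheimer's disease, lacked mouse TREM2 and were 8.5 months old, and these features were common to all groups. The R47H mice had human TREM2 with the R47H variant, the CV mice had human TREM2 of the common variant, and the KO mice had no human TREM2. TREM2 is a lipid-sensing receptor of microglia. Each genotype had 3 mice, mouse 1 a female and mice 2 and 3 males, and each mouse gave 1 Affymetrix array from CD45+ CD11b+ cells sorted from the brain. The promoter that drives human TREM2, the strain and its H-2 haplotype were not stated in the labels, and class I heavy-chain sequences differ among haplotypes.

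All values are log2 signals as deposited, and a difference is the first-named genotype minus the second on that scale. Array medians lay between 5.28 and 5.35 and correlations between arrays between 0.981 and 0.990. Microglial markers were present in all arrays: 12 of 13 listed markers had a probe set, each above the array median, and their summed level (log2 of the summed linear signals) was 15.12 to 15.17 in R47H mice, 15.01 to 15.03 in CV mice and 15.11 to 15.20 in KO mice. All 14 neutrophil markers had a probe set, with Ly6g, Cxcr2, Elane and Mpo under the array median, and their summed level was 11.6 to 12.8 in R47H mice, 13.7 to 14.3 in CV mice and 11.1 to 14.3 in KO mice. KO mouse 3 was apart from KO mice 1 and 2 in these markers, with a mean deviation of 1.71 against -2.06 and -1.59. Oligodendrocyte markers (10 of 11 with a probe set, Ugt8a under the array median) summed to 10.5 to 10.8 in R47H mice, 9.38 to 9.67 in CV mice and 9.44 to 10.2 in KO mice. Astrocyte markers (10 of 10 with a probe set, Gfap, Aqp4, Gja1, Aldh1l1 and Sox9 under the array median) summed to 9.73 to 10.01 in R47H mice, 8.999 to 9.11 in CV mice and 9.06 to 9.47 in KO mice. Monocyte markers (8 of 10 with a probe set, F10 and Vcan under the array median) summed to 8.97 to 9.37 in R47H mice, 10.5 to 11.2 in CV mice and 8.98 to 10.8 in KO mice. Of 16 listed T and NK cell markers, 14 had a probe set and 11 of these lay under the array median, Cd3d, Cd8a, Cd4 and Ncr1 among them. The sum of their signals was 9.39 to 10.6 in R47H mice, 9.47 to 9.63 in CV mice and 9.64 to 10.2 in KO mice. In RNA from a sorted population, fewer cells of a type and less RNA per cell cannot be told apart, and the part of these other cells in the values given here was not tested except where a fit with the neutrophil markers is named.

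In the mouse genome (GRCm38.p6, RefSeq), 7 of the 10 genes lie on chromosome 17, in and beside the H-2 complex. Tapbp is at chr17:33919478-33929290, H2-K1 at chr17:33996012-34000619, Psmb9 at chr17:34182030-34187330, Tap1 at chr17:34187556-34197225, Psmb8 at chr17:34198195-34201454, Tap2 at chr17:34204479-34216321 and H2-D1 at chr17:35263094-35267497. B2m is at chr2:122147687-122153082, Erap1 at chr13:74639573-74693205 and Nlrc5 at chr8:94434335-94527272. Psmb9 and Tap1 are read in opposite directions from starts with 225 bases between them, so that this interval is the upstream sequence of both genes. It is shown from the plus strand, with the letters CCAAT and TGACG in capitals. The same letters are the cores of the Y box and of the X2 element at which the Nlrc5-dependent complex is known to sit in class I promoters. Their positions are given below.

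Tap1-Psmb9 interval, chr17:34187331-34187555: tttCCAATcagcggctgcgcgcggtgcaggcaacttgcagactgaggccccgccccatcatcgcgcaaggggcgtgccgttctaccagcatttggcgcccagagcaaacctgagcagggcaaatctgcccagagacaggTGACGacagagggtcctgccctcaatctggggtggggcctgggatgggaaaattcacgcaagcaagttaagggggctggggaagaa

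The B2m sequence is shown because it alone among the 8 windows examined held GAAA, any 2 bases and GAAA again, the form of an interferon-stimulated response element. It is the plus strand directly before the B2m start, with that element, TGACG and CCAAT (read here from the other strand) in capitals.

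B2m upstream, chr2:122147537-122147686: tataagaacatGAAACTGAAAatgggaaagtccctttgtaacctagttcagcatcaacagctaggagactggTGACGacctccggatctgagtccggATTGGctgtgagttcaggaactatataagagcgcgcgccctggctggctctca

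The last pair holds 30 bases from each heavy-chain gene, cut to begin at a site that both hold. Part of their likeness therefore comes from the choice of stretch. Capitals mark GGGGA followed directly by TTCCC, a site of the NF-κB type, and GAA, any 2 bases and GAAAC, an interferon-response form read here from the other strand.

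H2-K1 upstream, minus strand, chr17:34000429-34000458: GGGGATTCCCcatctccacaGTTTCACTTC

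H2-D1 upstream, plus strand, chr17:35262923-35262952: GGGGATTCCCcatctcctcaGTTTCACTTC

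The H2-K1 and H2-D1 stretches are identical at 29 of 30 bases, and the difference is A18T, counted from the 5′ end with the H2-K1 base first. The motifs were searched on both strands in the 250 bases before the start of 27025 genes. Windows were given for 8 of the 10 genes, all but Nlrc5 and Tap2. TGACG and CCAAT both occurred, at any distance, in 5 of the 8 windows (B2m, H2-K1, Psmb9, Tap1 and H2-D1), against 6.39% of all windows. Counted from the gene start, their first bases lay at -78 and -53 in B2m and at -41 and -16 in H2-K1. In H2-D1 they lay at -101 and -76, with another CCAAT at -53. They were farther apart in Tap1, at -86 and -222, and in Psmb9, at -144 and -8. The windows of Psmb9 and Tap1 overlap, since both take in the interval printed above. TGACG alone was in 17.9% of all windows and in the same 5, and CCAAT was in 34.5% and in those 5 plus Tapbp. The GAA and GAAAC form occurred in 1.47% of all windows and the NF-κB form in 0.0814%, in each case with H2-K1 and H2-D1 as the members that held it. The GAAA and GAAA form was in 3.04% of windows, with B2m the only member. TTC, any 3 bases and GAA was also searched and was in 7.18% of windows, with Psmb8 the only member, its first base at -97. The interferon-response forms share letters and may mark overlapping places. A match describes letters and does not show that a factor binds there.

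Across genotypes the class I loading genes stayed within narrow bounds, and none of the 8 measured genes passed the test in any comparison. In R47H against KO microglia, 7 of the 8 differences lay above 0, with a median of 0.07, beside 49.6% of differences above 0 and a median of -0.0011 over all genes tested. Tap1 had the largest of them, 0.43 ± 0.10 (SE), which is 1.35-fold, and its adjusted p of 0.285 did not pass. In CV against KO microglia, 5 of 8 lay above 0 with a median of 0.03, beside 45% and -0.016 over all genes, and in R47H against CV microglia 7 of 8 with a median of 0.10, beside 53.4% and 0.010.

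The test was limma's moderated test with Benjamini-Hochberg adjustment over all 10795 genes and a term for sex, called at an adjusted p under 0.05. It called 0 of 8 genes in R47H against KO, where 0.0834% of all genes were called, 0 of 8 in CV against KO, where 1.21% were, and 0 of 8 in R47H against CV, where 0.797% were. At an unadjusted p under 0.05 it took 1 of 8 (Tap1) in R47H against KO beside 5.68% of all genes, 0 of 8 in CV against KO beside 13.2%, and 2 of 8 (Tap1 and Tapbp) in R47H against CV beside 12.4%. In an F-test of any genotype difference Tap1 again had the smallest p among the 8, with an adjusted p of 0.183, where 1.32% of all genes were called. The 95% intervals of the 8 differences ran from -0.23 to 0.66 in R47H against KO, which is 0.856- to 1.58-fold. They ran from -0.32 to 0.39 in CV against KO (0.800- to 1.31-fold) and from -0.26 to 0.50 in R47H against CV (0.836- to 1.41-fold). With 3 mice a group the model recovered 8% of simulated R47H minus KO changes of 0.25, 64% of 0.5 and 98% of 1, each among 10795 genes. Differences of the size seen for most of these genes were therefore seldom detectable with this number of arrays. The simulation called 147 genes where the data had 9, and the Benjamini-Hochberg adjustment is less strict with more calls. The recovered shares may thus be too high for this comparison.

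**Figure D1:**
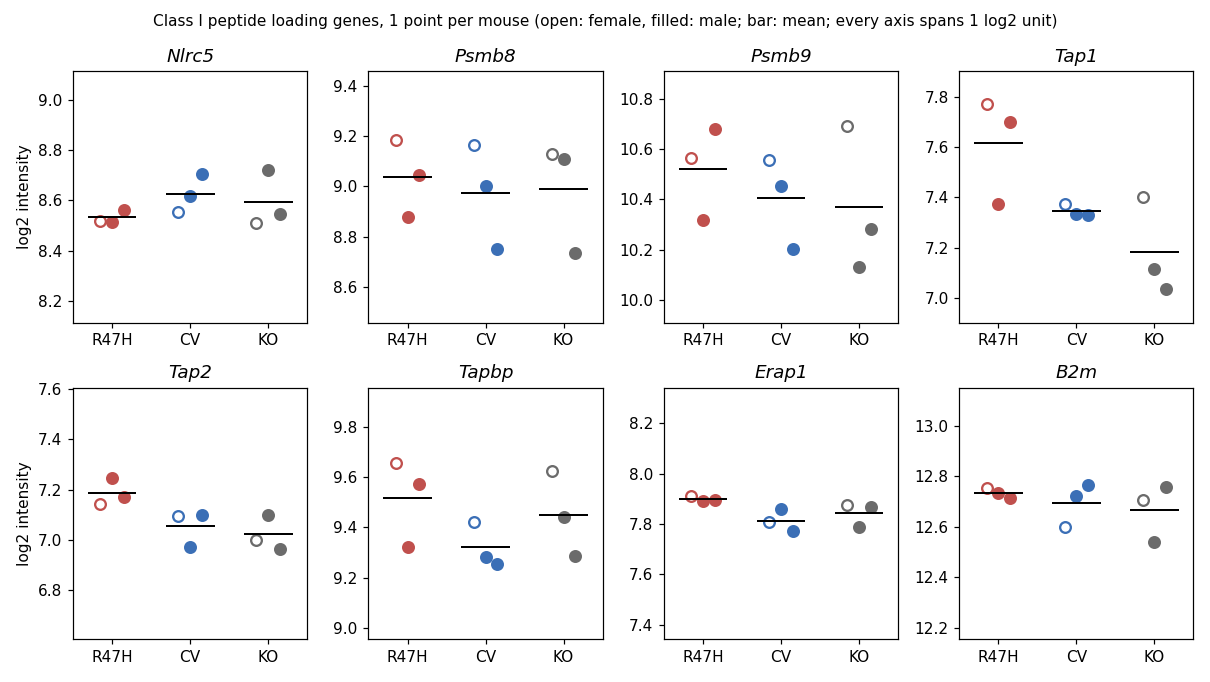
Deposited log2 signal of the 8 measured class I loading genes, 1 panel a gene, with a point for each mouse (R47H, CV and KO from left to right) and a line at the group mean. Only Tap2 and Erap1 have all R47H mice above all KO mice.

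Among the measured members Tap1 had the largest differences between genotypes. Tap1, the first subunit of the peptide pump, read 7.77, 7.37 and 7.70 in R47H mice 1, 2 and 3, 7.37, 7.34 and 7.33 in CV mice, and 7.40, 7.11 and 7.04 in KO mice. R47H mice 1 and 3 stood above every other mouse, R47H mouse 2 lay barely above the CV mice and under KO mouse 1, and the CV mice were nearly identical. The means were 7.61 ± 0.21 in R47H, 7.35 ± 0.02 in CV and 7.18 ± 0.19 in KO (SD, n = 3 each). The R47H minus KO difference had a 95% interval of 0.20 to 0.66, and limma's unadjusted p was 0.00209. CV minus KO was 0.16 (adjusted p = 0.545) and R47H minus CV was 0.27 with an interval of 0.04 to 0.50 (adjusted p = 0.320). R47H and CV mice did not overlap in Tap1, whereas R47H and KO mice did.

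Leaving out R47H mouse 3 gave a Tap1 difference from KO of 0.35 and leaving out R47H mouse 2 gave 0.53, the lowest and highest of the 9 fits with 1 mouse left out. The adjusted p over those fits ran from 0.193 to 0.812. With the neutrophil marker level of each mouse added to the model the difference was 0.43, as without it. The neutrophil markers had a median R47H minus KO difference of only -0.14, so this fit could move the value little. In R47H minus CV, where their median difference was -2.28, Tap1 was 0.22 with the covariate (limma adjusted p = 0.876).

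Tap2 makes the other part of the pump. It read 7.14, 7.24 and 7.17 in R47H mice, 7.10, 6.97 and 7.10 in CV mice, and 7.001, 7.10 and 6.97 in KO mice, so the R47H mice lay above all CV and all KO mice by a small margin. The means were 7.19 ± 0.05, 7.06 ± 0.07 and 7.02 ± 0.07 in R47H, CV and KO (SD, n = 3 each). The R47H minus KO difference was 0.16 ± 0.07 (SE) with an adjusted p of 0.870, CV minus KO 0.03 (0.883) and R47H minus CV 0.13 (0.532). R47H mouse 2, the lowest R47H mouse for Tap1, was the highest for Tap2, but the R47H mice lay close together for Tap2, between 7.14 and 7.24. Over the 9 arrays the Pearson correlation of Tap1 and Tap2 was 0.495.

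Tapbp, the bridge between the transporter and the heavy chain, read 9.65, 9.32 and 9.57 in R47H mice, 9.42, 9.28 and 9.26 in CV mice, and 9.62, 9.44 and 9.29 in KO mice. CV mice lay lowest on average, at 9.32 ± 0.09, beside 9.52 ± 0.17 in R47H and 9.45 ± 0.17 in KO (SD, n = 3 each), and all groups overlapped. R47H minus CV was 0.20 with a 95% interval of 0.0044 to 0.39 and an adjusted p of 0.395. R47H minus KO was 0.07 (0.964) and CV minus KO -0.13 (0.565). Tapbp was also listed on 2 probe sets shared with Rps3a1, which were not used.

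Around the transporter, 11 of 12 listed partners that hold or fold the heavy chain were tested, and 0 were called in any comparison. They lay above 0 in 7 of 11 cases in R47H against KO (median 0.01), 2 of 11 in CV against KO (-0.07) and 9 of 11 in R47H against CV (0.06). The chaperones that hold new heavy chains were Calr, at 0.00 in R47H minus KO and -0.09 in CV minus KO, and Canx, at -0.01 and -0.11. Pdia3, the disulfide isomerase of the loading complex, was at 0.07 and -0.07, and Tapbpl, a paralog of tapasin, at 0.06 and -0.00. Bcap31, an export factor of the endoplasmic reticulum, had the smallest p of the list in R47H against CV, with a difference of 0.41 and an adjusted p of 0.408.

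**Figure D2:**
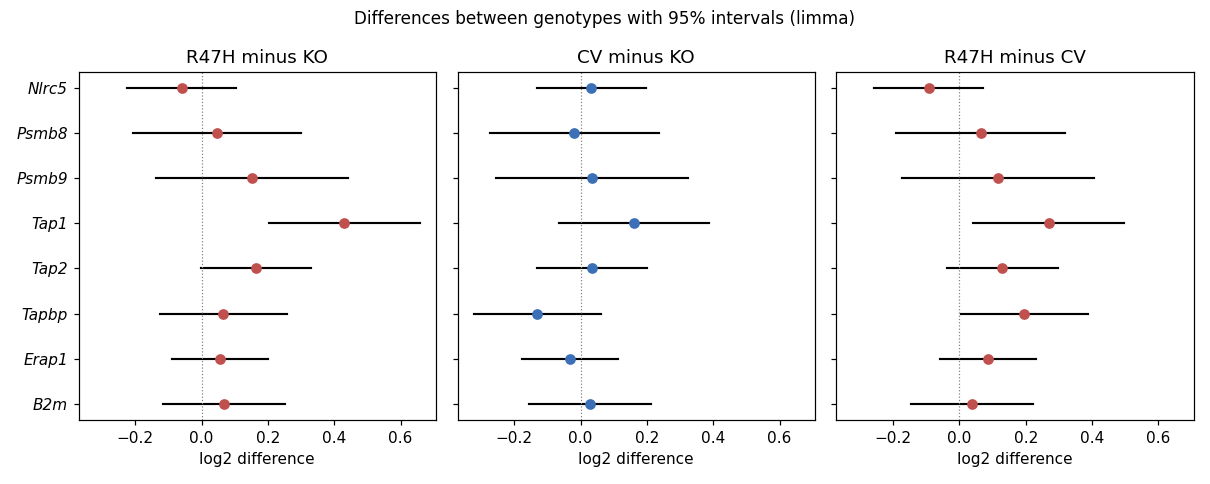
Log2 differences of the 8 measured genes in R47H minus KO, CV minus KO and R47H minus CV, with 95% intervals from the limma model. Tap1 has the only R47H minus KO interval without 0, at 0.20 to 0.66, and no interval of CV minus KO leaves 0 out.

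The inducible proteasome subunits varied more among mice of a genotype than between genotypes. Psmb8 read 9.18, 8.88 and 9.05 in R47H mice, 9.17, 9.0003 and 8.75 in CV mice, and 9.13, 9.11 and 8.73 in KO mice. The means were 9.04 ± 0.15, 8.97 ± 0.21 and 8.99 ± 0.22 in R47H, CV and KO (SD, n = 3 each), and the differences were 0.05 in R47H minus KO (adjusted p = 0.983), -0.02 in CV minus KO (0.961) and 0.06 in R47H minus CV (0.868). The 3 groups covered nearly the same range.

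Psmb9 read 10.56, 10.32 and 10.68 in R47H mice, 10.56, 10.45 and 10.20 in CV mice, and 10.69, 10.13 and 10.28 in KO mice. The spread within genotypes was again the main feature, with means of 10.52 ± 0.18 in R47H, 10.40 ± 0.18 in CV and 10.37 ± 0.29 in KO (SD, n = 3 each). The differences were 0.15 in R47H minus KO (adjusted p = 0.950), 0.04 in CV minus KO (0.931) and 0.12 in R47H minus CV (0.769). With 1 mouse left out the R47H minus KO difference of Psmb9 ran from 0.019 without R47H mouse 3 to 0.26 without KO mouse 1. Ranked by their SD within groups, Psmb9 stood at the 90.0th percentile of all genes tested, Psmb8 at the 84.2nd and Tap1 at the 73.5th. R47H mice 1 and 3 and KO mouse 1 were the 3 highest of the 9 mice for Psmb9, for Tap1 and for Tapbp. Psmb9 and Tap1 share the upstream interval printed above, and Tapbp does not. Whether the interval has a part in this order of mice was not tested.

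All 20 other listed proteasome subunits and activators were tested, and 0 were called. Of these, 12 lay above 0 in R47H against KO (median 0.02), 14 in CV against KO (0.08) and 6 in R47H against CV (-0.08). Psmb10, the remaining inducible catalytic subunit, had an R47H minus KO difference of 0.16 (adjusted p = 0.907). The constitutive subunits that the inducible ones replace were Psmb5, at -0.08 in R47H minus KO and -0.01 in CV minus KO, Psmb6, at 0.13 and 0.26 (adjusted p = 0.260 in CV minus KO), and Psmb7, at 0.09 and 0.16. The activator subunits Psme1 and Psme2 were at 0.03 and 0.04 in R47H minus KO and at -0.08 and -0.09 in CV minus KO.

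Erap1, the aminopeptidase that trims peptides in the endoplasmic reticulum, was the steadiest of the 8 genes, at the 2.14th percentile of within-group SD. It read 7.91, 7.89 and 7.89 in R47H mice, 7.81, 7.86 and 7.77 in CV mice, and 7.87, 7.79 and 7.87 in KO mice. The R47H mice lay above all others, but by little, with means of 7.90 ± 0.01 in R47H, 7.81 ± 0.04 in CV and 7.84 ± 0.05 in KO (SD, n = 3 each). R47H minus KO was 0.06 (adjusted p = 0.964), CV minus KO -0.03 (0.878) and R47H minus CV 0.09 (0.628). All 9 arrays fell within 0.14. Of 8 other listed peptidases 6 were tested and 0 were called. Npepps, a cytosolic aminopeptidase, had the smallest p of them in CV against KO, with a difference of 0.19 and an adjusted p of 0.367.

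B2m, the light chain common to class I molecules, read 12.75, 12.73 and 12.72 in R47H mice, 12.60, 12.72 and 12.77 in CV mice, and 12.71, 12.54 and 12.76 in KO mice. The R47H mice lay within the range of the other genotypes, at 12.74 ± 0.02, beside 12.70 ± 0.09 in CV and 12.67 ± 0.11 in KO (SD, n = 3 each). R47H minus KO was 0.07 (adjusted p = 0.964), CV minus KO 0.03 (0.918) and R47H minus CV 0.04 (0.893).

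Groups that did not overlap were counted for all genes as background. In R47H against KO this held for 2 of the 8 members, Tap2 and Erap1, beside 7.11% of all genes, and in R47H against CV for 3 of 8, Tap1, Tap2 and Erap1, beside 14.9%. In each case the R47H mice were the higher, a direction that 3.84% of all genes had in R47H against KO and 8.74% in R47H against CV. In CV against KO it held for 0 of 8, beside 14% of all genes.

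The heavy chains could be followed only through the probe sets annotated to H2-D1, H2-K1 and LOC547349 together. On probe set 10444780 the signal was 12.16, 11.48 and 11.88 in R47H mice, 11.95, 11.87 and 11.84 in CV mice, and 11.95, 11.45 and 11.64 in KO mice. R47H mouse 2 and KO mouse 2 lay lowest, and the groups overlapped. The means were 11.84 ± 0.34 in R47H, 11.89 ± 0.05 in CV and 11.68 ± 0.25 in KO (SD, n = 3 each). The differences were 0.16 in R47H minus KO (adjusted p = 0.972), CV minus KO 0.21 (0.547) and R47H minus CV -0.05 (0.922), from a limma fit over all probe sets with a gene symbol.

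Probe set 10450075 read 11.22, 10.96 and 11.22 in R47H mice, 11.04, 11.01 and 11.14 in CV mice, and 11.11, 10.64 and 10.81 in KO mice. KO mice 2 and 3 were the lowest of the 9 mice, and KO mouse 1 lay within the range of the others. The means were 11.13 ± 0.15 in R47H, 11.07 ± 0.07 in CV and 10.85 ± 0.24 in KO (SD, n = 3 each). The difference of R47H from KO was 0.28 with a 95% interval of 0.02 to 0.54 and an adjusted p of 0.928, CV minus KO 0.21 (0.500) and R47H minus CV 0.07 (0.882).

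**Figure D3:**
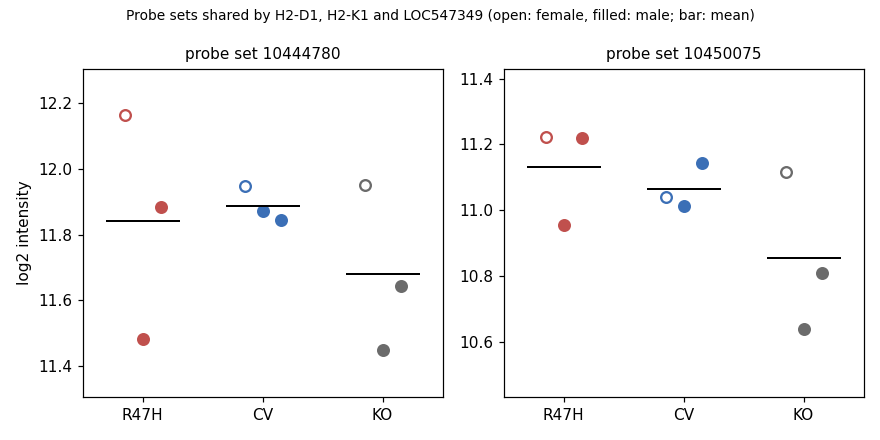
Log2 signal per mouse on the probe sets annotated jointly to H2-D1, H2-K1 and LOC547349, with points for R47H, CV and KO mice from left to right and a line at the group mean. The KO means of 11.68 and 10.85 are the lowest on both probe sets, and all groups overlap.

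Other class I heavy chains, among them the nonclassical H2-Q, H2-T and H2-M genes and the relatives Mr1 and Hfe, had 9 of 23 listed genes tested and 0 called. In R47H against KO 5 of 9 lay above 0 (median 0.05), in CV against KO 4 (-0.01) and in R47H against CV 3 (-0.08). H2-M3, which presents formylated peptides, read 8.23, 7.84 and 7.77 in R47H mice, 8.31, 8.26 and 8.05 in CV mice, and 7.76, 7.91 and 7.88 in KO mice. Its CV minus KO difference was 0.35 ± 0.12 (SE), all CV mice lay above all KO mice, and the adjusted p was 0.239. Mr1, which presents microbial metabolites to T cells, had -0.21 in R47H minus KO (adjusted p = 0.870) and -0.27 in CV minus KO (0.260). Hfe, an iron regulator of class I form, had -0.26 in CV minus KO (0.267).

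Nlrc5 was represented by 19 probe sets of its own, and the one with the highest mean, 10574100, stands for it above. It read 8.52, 8.51 and 8.56 in R47H mice, 8.55, 8.62 and 8.70 in CV mice, and 8.51, 8.72 and 8.55 in KO mice. The groups overlapped, with means of 8.53 ± 0.03 in R47H, 8.62 ± 0.08 in CV and 8.59 ± 0.11 in KO (SD, n = 3 each). R47H minus KO was -0.06 (adjusted p = 0.964), CV minus KO 0.03 (0.888) and R47H minus CV -0.09 (0.651).

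The other Nlrc5 probe sets did not all read alike. Of the 19, 16 passed the filter in a fit of 12716 probe sets with a symbol, where 0.102% were called in R47H against KO, 1.04% in CV against KO and 0.59% in R47H against CV. None of the 16 was called in any of these comparisons. At a limma unadjusted p under 0.05 there were 2, 4 and 0 of them, beside 5.68%, 13.2% and 12.4% of all genes tested. Over all 19, 14 lay above 0 in R47H against KO, with a median of 0.14, 16 in CV against KO, with a median of 0.25, and 9 in R47H against CV, with a median of -0.03. Of all genes tested, 49.6%, 45% and 53.4% lay above 0 in these comparisons, in that order. Both comparisons with KO use the same KO mice. The shares above 0 and at an unadjusted p come from the fit of 10795 genes with 1 probe set each. The Nlrc5 probe sets read 1 gene in the same mice, so their counts are not counts of separate cases.

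Probe set 10574104 read 6.44, 6.18 and 6.41 in R47H mice, 6.27, 6.16 and 6.39 in CV mice, and 5.96, 5.46 and 5.71 in KO mice. All R47H and all CV mice lay above all KO mice. The R47H minus KO difference was 0.63 ± 0.12 (SE; adjusted p = 0.163) and CV minus KO 0.56 ± 0.12 (SE; adjusted p = 0.0798). Probe set 10574149 read 7.03, 6.79 and 7.17 in R47H mice, 7.04, 6.60 and 7.16 in CV mice, and 6.61, 5.71 and 5.90 in KO mice. KO mouse 1 stood between the other KO mice and most mice with human TREM2, and R47H minus KO was 0.92 ± 0.20 (SE; adjusted p = 0.275), the largest of the 19, beside 0.86 in CV minus KO (0.114). These probe sets were picked for their values. When all 19 were averaged in each mouse, Nlrc5 gave an R47H minus KO difference of 0.20 (adjusted p = 0.911), so its direction against KO depends on which probe sets stand for it. Where each probe set lies in the Nlrc5 transcript was not stated in the annotation.

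**Figure D4:**
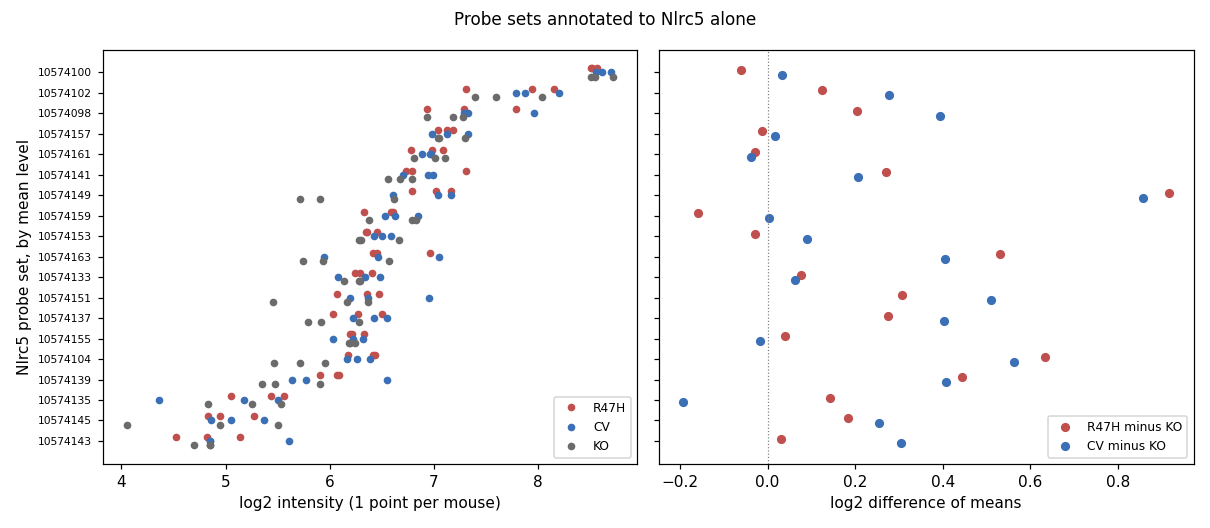
The 19 probe sets annotated to Nlrc5 alone, with each probe set's log2 signal per mouse in R47H, CV and KO mice. The probe set with the highest mean shows no separation of the groups, and on 10574104 the R47H and CV mice lie above the KO mice.

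The female mice tended to hold the upper end of each genotype for part of the set. Mouse 1 was the only female of each genotype, so sex cannot be told apart from anything else tied to the mouse number. Mouse 1 was the highest of its genotype for Tap1, Tapbp and Psmb8 in each of the 3 genotypes, and for Psmb9 in CV and KO. In limma's model the female minus male differences were 0.20 for Tap1 (adjusted p = 0.450), 0.21 for Tapbp (0.353), 0.24 for Psmb8 (0.422) and 0.26 for Psmb9 (0.438). None of the 8 genes was called, beside 0.0648% of all genes, and these 4 had an unadjusted p under 0.05, beside 11% of all genes. The neutrophil markers had a median female minus male difference of -1.43. With their level in each mouse added to the model the differences were 0.17, 0.16, 0.13 and 0.30 for Tap1, Tapbp, Psmb8 and Psmb9.

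Within the R47H group, mouse 2 was the lowest for Tap1, Tapbp, Psmb8 and Psmb9 and on both heavy-chain probe sets. R47H mouse 1 was among the 3 highest of all 9 mice for 7 of the 8 genes, and no R47H mouse was the lowest of the 9 for any. As a mean deviation from each gene's average, the 8 genes stood at 0.13, -0.02 and 0.11 in R47H mice, 0.01, -0.03 and -0.07 in CV mice, and 0.06, -0.06 and -0.12 in KO mice. Over the 9 arrays this deviation was most like that of Ndufc1 (Pearson's r = 0.952), BC029722 (0.934), Cfap36 (0.927), Gltp (0.923) and Tnfsf9 (0.921). That is a description of 9 points that share tissue and sort and differ in genotype and sex.

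Interferon-stimulated genes and regulators of class I transcription were set beside the members. Of 38 listed interferon-stimulated genes 30 were tested, and 29 of the 30 lay above 0 in R47H against KO (median 0.26), 6 in CV against KO (-0.15) and 29 in R47H against CV (0.36). Gbp5, a guanylate-binding protein of interferon-treated cells, was the only one called, in R47H against CV, at 5.98, 6.30 and 6.33 in R47H mice, 5.30, 5.52 and 5.77 in CV mice, and 5.89, 5.75 and 5.93 in KO mice. Its difference was 0.68 ± 0.11 (SE; adjusted p = 0.0373). The call was lost in 6 of the 9 fits with 1 mouse left out, those without any 1 of the R47H or CV mice, where the adjusted p reached 0.189.

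The interferon list rested largely on R47H mouse 3 in R47H against KO. Its mean deviation was 0.11, -0.13 and 0.68 in R47H mice, -0.20, -0.40 and 0.07 in CV mice, and 0.15, -0.19 and -0.09 in KO mice. Without R47H mouse 3 the list's median was 0.03 in R47H against KO, with 18 of 30 above 0, and 0.11 in R47H against CV, with 24 of 30 above 0. The 8 class I loading genes then had a median of 0.04 in R47H against KO, with 5 of 8 above 0, and of 0.07 in R47H against CV, with 6 of 8.

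**Figure D5:**
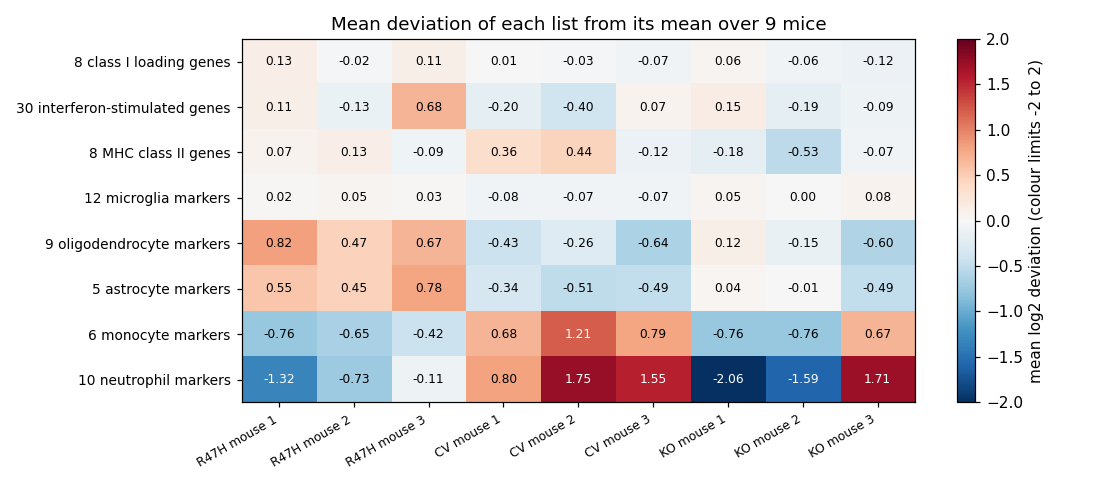
Mean deviation from each gene's average (log2) per mouse for the class I loading genes, interferon-stimulated genes, MHC class II genes and marker lists, with R47H, CV and KO mice from left to right. The class I loading genes stay between -0.12 and 0.13, while R47H mouse 3 reaches 0.68 for the interferon-stimulated genes.

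Of 25 listed regulators of class I transcription 23 were tested and 0 were called, with 16 above 0 in R47H against KO (median 0.03), 14 in CV against KO (0.07) and 11 in R47H against CV (-0.02). Irf1, which binds interferon-response elements of class I promoters, was at 0.12 in R47H minus KO and 0.17 in CV minus KO, and Rfx5, a part of the X-box complex, at 0.15 and 0.08. Jak1, the kinase of interferon receptors, had -0.20 in CV minus KO (adjusted p = 0.303), and Creb1, which binds sites of the TGACG type, had -0.27 in R47H minus CV (0.217). In R47H minus CV, Stat2 had 0.43 (adjusted p = 0.493) and Irf7 0.60 (0.503), the largest difference of the list. Irf9 had 0.20 in R47H minus KO (0.933).

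MHC class II genes, which load peptides by another route, had wider differences in the same mice. Of 11 listed genes 8 were tested and 0 were called, with 8 of 8 above 0 in R47H against KO (median 0.29), 7 in CV against KO (0.58) and 2 in R47H against CV (-0.28). H2-Aa, a class II chain, averaged 10.75 ± 0.13 in R47H mice, 11.22 ± 0.46 in CV mice and 10.27 ± 0.56 in KO mice (SD, n = 3 each), with 0.95 in CV minus KO (adjusted p = 0.211). H2-DMa, an editor of class II peptides, had 0.44 in CV minus KO (0.126). The tested monocyte markers lay above 0 in CV against KO in 6 of 6 cases, with a median of 1.13, and below 0 in R47H against CV in 6 of 6, with a median of -1.59. Their part in the class II values was not tested, nor was the difference between the class I and class II genes.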

How the data were processed

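Values were the deposited log2 signals of 35556 probe sets on 9 arrays, 1 per mouse; the log2 scale was read from their range (1.31 to 13.9). The authors' background correction, normalization and probe summarization were not stated in the labels or files, and 2 ng of total RNA was labelled per array, per the labels' protocols. Gene names came from the platform annotation, where 21789 probe sets had 1 symbol, 1621 several and 12146 none. The highest-mean single-symbol probe set stood for each of 19938 genes, and the 10795 with a mean at or above 5.31 (the 50th percentile of all probe sets) were tested.

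limma 3.58.1 in R 4.3.3 fitted genotype and sex on all 9 arrays (5 residual and 3.73 prior degrees of freedom), two-sided, with Benjamini-Hochberg adjustment within each comparison and calls under 0.05. Intervals are 95%. The labels name each sample as a separate mouse. The model was tested on simulated data. Alternatives covered covariates, arrays fitted, filters, probe sets, quantile normalization, eBayes options and leaving out each mouse. There were 0 unused columns of per-sample values.

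The members and lists were chosen with earlier results of these data known. The text names all members, the listed genes called or with up to 3 smallest p-values per comparison, paralogs and partners set beside a member, up to 3 marker genes of highest mean, and the genes most like the members over the arrays. Nlrc5 probe sets 10574104 and 10574149, and the markers named as under the array median, were chosen after their values were seen. Promoter sequences are from RefSeq, GRCm38.p6, read on the genome's strand or the gene's as stated.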

Additional observations from a re-analysis of the deposited data

How the results depend on the processing

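None of the 8 measured genes was called in the genotype comparisons under any of the 20 alternatives, or in the sex comparison where it was refitted. The sex comparison was not refitted without the sex term, with the replicate block, with the compared groups alone or with a mouse left out. Of 544 values 521 kept their direction, and the smallest limma adjusted p was 0.193, but small differences changed sign. B2m in CV minus KO was -0.0025 after quantile normalization. With the neutrophil marker level as a covariate it was -0.061, Psmb8 in CV minus KO 0.15, Psmb9 in CV minus KO -0.030, Psmb8 in R47H minus CV -0.11 and B2m in female minus male 0.038. With the mean of all probe sets of a gene, an alternative chosen after seeing the data, Nlrc5 gave 0.20 in R47H minus KO and 0.10 in female minus male. Leaving out 1 mouse at a time, R47H minus KO ran from -0.0068 to 0.11 for B2m, from -0.0029 to 0.13 for Tapbp and from -0.051 to 0.15 for Psmb8. CV minus KO ran from -0.046 to 0.091 for B2m, from -0.0016 to 0.082 for Tap2, from -0.11 to 0.090 for Psmb8, from -0.047 to 0.15 for Psmb9 and from -0.0068 to 0.087 for Nlrc5. R47H minus CV ran from -0.024 to 0.074 for B2m, from -0.014 to 0.12 for Psmb8 and from -0.017 to 0.21 for Psmb9. The cause was not tested.

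Over all genes, 9 were called in R47H minus KO, 3 without the sex term, 1 with the compared groups alone, 15 with trend and robust options, 15 with the neutrophil covariate, and 0 to 7 with 1 mouse left out (0 without R47H mouse 3). In CV minus KO 131 were called, 77 without the sex term, 54 with the compared groups alone, 22 with the neutrophil covariate and 59 to 172 with 1 mouse left out. In R47H minus CV 86 were called, 48 with no filter, 9 with the stricter filter, 9 with the neutrophil covariate and 9 to 132 with 1 mouse left out. Mice with the same number in different genotypes had the same sex, and whether the number also marks a batch was not stated in the labels. Correlations of their deviations ran from -0.04 to 0.36, and 5 of 9 mice were most like their own number. With the replicate block 11, 136 and 83 genes were called in R47H minus KO, CV minus KO and R47H minus CV, 0 of them members, and Tap1 in R47H minus KO was 0.43 (adjusted p = 0.338). The number of arrays limits precision: after moderation, residual SDs had a median of 0.11 (log2).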
